A study of Mus musculus with 9 samples.

Results

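Messenger RNA was measured in 3T3-L1 cells, a mouse embryonic fibroblast line derived from 1 clone that can be turned into adipocytes, and the genes described here were those that moved together in both differentiation media. A gene was chosen when all 6 libraries from differentiation medium lay on the same side of all 3 Undifferentiated libraries in CPM, a gene's count scaled to its library's total, when the means of the 2 medium groups were less than 1.5-fold apart (as they were for 50.6% of measured genes), and when its mean over the 9 libraries was at least 1 CPM. Of the 54532 genes in the table, 12708 reached that mean, and 3318 of them (26.1%) were chosen by these values, 1841 higher (14.5%) and 1477 lower (11.6%) in the media. In all, 2690 genes (21.2%) were above and 2647 (20.8%) below the controls in all 6 medium libraries, and 2019 of these stood apart with the media at least 1.5-fold from each other and were not chosen.

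All 9 cultures had been kept confluent for 3 days in DMEM with bovine calf serum. The 3 Undifferentiated libraries were the controls. The 3 Differentiated libraries came from cells then given 1 uM dexamethasone, 0.5 mM of the phosphodiesterase inhibitor IBMX, 1 uM rosiglitazone and 10 ug/mL insulin in an arginine- and lysine-free DMEM to which fetal bovine serum, arginine and lysine had been returned. The 3 Lysfree libraries came from cells given the same medium and hormones without the added lysine, with serum as a remaining source. Both medium groups therefore differed from Undifferentiated in hormones, in the serum, in the base medium and possibly in time in culture, since the labels do not say when the Undifferentiated cells were harvested, and the part of each cannot be told apart.

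The hormone mixture starts adipogenesis along several routes. Dexamethasone binds the glucocorticoid receptor, IBMX blocks phosphodiesterases and so raises cyclic AMP, rosiglitazone activates PPARG, and insulin signals through its own and the IGF1 receptor. Confluent 3T3-L1 cells given such a mixture are known to re-enter the cell cycle for a short time, a step called mitotic clonal expansion, before fat cell genes are switched on, and growth of this kind needs new ribosomes and nucleotides.

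Library totals ran from 15880144 to 21806693 counts. Lysfree 1 stood apart from its replicates: it lay over 1.5-fold from the mean of Lysfree 2 and 3 for 2197 of the 12708 measured genes, and for 92 of the higher and 261 of the lower chosen genes. Without that library the rule chose 2151 genes as higher and 1657 as lower, and these held 95.8% and 93.3% of the genes chosen with it. Markers were read per length, in FPKM, which scales counts to gene length as well as library total. The summed level of 10 fibroblast and preadipocyte markers was 5477 to 5868 FPKM in Undifferentiated, 1371 to 1380 in Differentiated and 2010 to 2096 in Lysfree, while the sum of 9 adipocyte markers was 207 to 318, 6471 to 6802 and 119.7 to 158 FPKM in the same order. The sum of 8 macrophage markers was 13.6 to 16.3 FPKM in Undifferentiated, 3.98 to 5.998 in Differentiated and 7.43 to 8.45 in Lysfree, and 1 of them, Cd68, was chosen as higher. Of the 8, 3 (Ptprc, Adgre1 and Itgam) had at most 3 counts in every library, and 6 were under 1 CPM on average, as were 5 of 6 endothelial, all 6 epithelial and 5 of 6 muscle markers.

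The chosen genes took up a large and similar part of the RNA in both media. Genes chosen as higher held 12.4% to 12.6% of the counts in the Undifferentiated libraries, 19.4% to 19.5% in Differentiated and 19.7% to 20.9% in Lysfree, whereas genes chosen as lower held 18.5% to 18.9%, 10.7% to 10.8% and 9.99% to 11.0%. Overlap with another annotated gene was present for 1009 higher and 791 lower chosen genes and for 6897 of the measured genes, and the strand setting of the counting was not given in the sources used here, so that reads of such pairs may be mixed (Bysl with Ccnd3, Rrp9 with Parp3 and Ppat with Paics among those described). Most single changes were small. The smaller of the 2 fold changes had a median of 1.44 among the higher and 1.52 among the lower genes. It was at least 2-fold for 246 higher genes (1.94% of those measured) and 374 lower genes (2.94%), and at least 4-fold for 18 and 75. Among the higher genes 1049 lay further from Undifferentiated in Lysfree and 792 in Differentiated, and among the lower genes 662 and 815. As the rule used all 9 libraries, these values describe the genes and were not tested. In bulk RNA, fewer cells of a kind and less RNA per cell cannot be told apart.

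**Figure D1:**
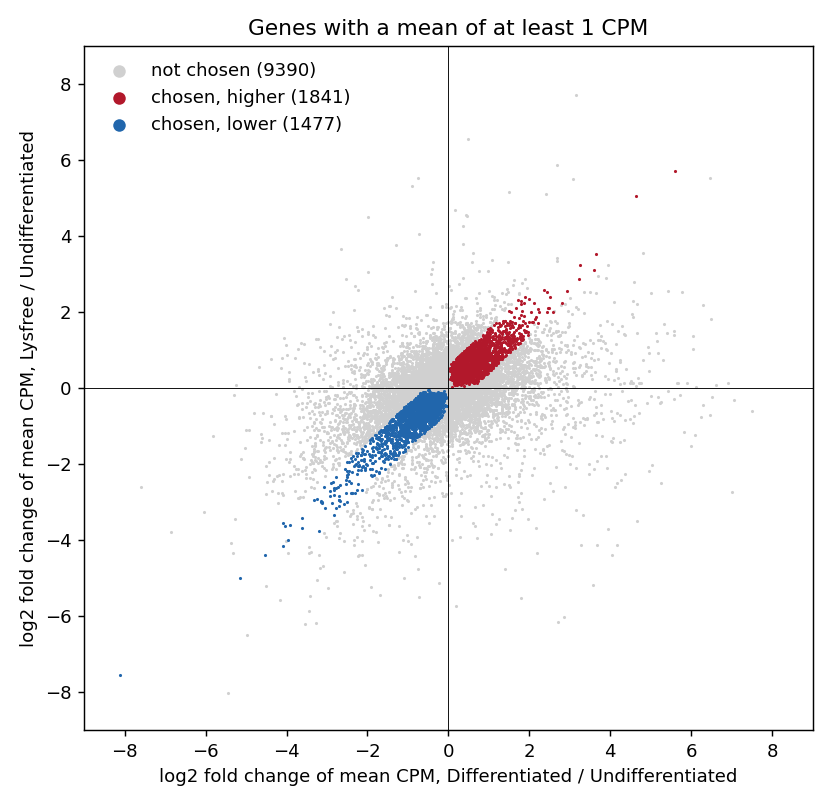
Log2 fold change of mean CPM over Undifferentiated in Differentiated (horizontal axis) and in Lysfree (vertical axis) for the 12708 measured genes, each a point. The 1841 higher (red) and 1477 lower (blue) chosen genes lie in a narrow band along the diagonal because the rule keeps the media within 1.5-fold, and grey points are the genes not chosen.

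Being under 1.5-fold apart did not mean that the media were equal. The media were under 1.1-fold apart for 559 higher and 443 lower genes. In edgeR's quasi-likelihood test of Lysfree against Differentiated, 711 higher and 411 lower genes had an adjusted p under 0.05, and 64.5% of all measured genes did. Since the rule used that contrast, nothing is read from these counts. Exosc4, at 1.499 times its Differentiated level in Lysfree, lay just inside the limit, and the first genes outside were Nhp2, at 1.5003 times its Lysfree level in Differentiated, and Tfg, at 1.5005 times its Differentiated level in Lysfree. When the rule was applied to the libraries of 2 replicate numbers, the 3 libraries of the remaining number lay on the same side for 85.7% to 94.1% of the higher and 86.6% to 92.4% of the lower genes, and also within the limit for 68.3% to 86.1% and 63.7% to 77.6%. The lowest shares came with number 1 held out, the number of the Lysfree library that stood apart.

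Known targets of the hormones were looked up in lists. Of 26 measured glucocorticoid-induced genes, 3 were chosen as higher (11.5%) and 1 as lower (3.85%), beside 14.5% and 11.6% of all measured genes. Klf9, a Kruppel-like factor induced by glucocorticoids, was at 45.8, 38.6 and 47.0 CPM in Undifferentiated, 93.9, 100.2 and 92.9 in Differentiated and 73.2, 80.6 and 78.1 in Lysfree. The rule excludes overlap between the controls and either medium for this and every chosen gene. Bcl6, a transcriptional repressor, was 2.24-fold higher in Differentiated and 2.18-fold higher in Lysfree, and Mt1, a metallothionein that binds zinc and copper, 1.83-fold higher in Differentiated and 2.37-fold higher in Lysfree. Sgk1, the serum- and glucocorticoid-regulated kinase, went the other way, from 115, 113 and 111 CPM to 48.3, 48.9 and 51.6 in Differentiated and 84.2, 67.3 and 68.5 in Lysfree, and was not chosen without Differentiated 3, Lysfree 2 or Lysfree 3. With FPKM 5 genes of the list were higher and 2 lower. Fkbp5, a co-chaperone that is a standard glucocorticoid readout, was at 139, 144 and 138 CPM in the controls, 148, 149 and 136 in Differentiated and 121, 132 and 133 in Lysfree, so that Differentiated overlapped the controls and Lysfree lay just under them. Per1 and Zbtb16 were higher in both media but more than 1.5-fold apart, at 2.33- and 3.84-fold in Differentiated against 1.37- and 1.62-fold in Lysfree. Tsc22d3, which encodes the glucocorticoid-induced leucine zipper GILZ, was outside the limit in the other direction, at 1.20-fold in Differentiated and 1.97-fold in Lysfree. By edgeR at an adjusted p under 0.05 and at least 2-fold, 15 of these 26 genes were higher in Differentiated and 7 in Lysfree, over Undifferentiated, where 10.4% and 5.52% of all tested genes were. The tested genes include many under the mean of 1 CPM that the 26 reached. Among the 12708 measured genes, the closer background, 1824 were higher in Differentiated and 1056 in Lysfree. The labels do not say that replicates came from separate cultures, so that edgeR's p-values measure only the spread between these libraries.

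Among 14 measured genes of the glucocorticoid receptor and its folding machinery, 4 chaperones and co-chaperones were chosen as higher. Hsp90aa1, the inducible HSP90, was at 366, 376 and 355 CPM in Undifferentiated, 995, 997 and 1018 in Differentiated and 1493, 1079 and 1050.1 in Lysfree, where Lysfree 1 was the highest library. Its partners Stip1 and Fkbp4 were higher, Stip1 by 1.95-fold in Differentiated and 2.32-fold in Lysfree and Fkbp4 by 1.42- and 1.98-fold, and the constitutive Hsp90ab1 1.21-fold higher in Differentiated and 1.20-fold higher in Lysfree. The receptor itself, Nr3c1, was not chosen, at 1.48-fold lower in Differentiated and 1.18-fold lower in Lysfree.

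Of 21 measured cyclic AMP targets 3 were chosen, all as higher (14.3%, beside 14.5% of all measured genes). By edgeR 8 of the list were higher and 1 lower in Differentiated, and 10 higher and 4 lower in Lysfree, over Undifferentiated. Of the 12708 measured genes, the background for this and the other lists and families, 1824 were higher and 2101 lower in Differentiated. In Lysfree 1056 of them were higher and 1541 lower. Atf3, a transcription factor of the ATF/CREB family that also answers stress and amino acid shortage (chr1:191170296-191218039 in mm10), went from 1.99, 1.33 and 2.71 CPM to 50.7, 49.4 and 49.9 in Differentiated and 69.1, 65.6 and 66.2 in Lysfree. Every medium library was above every control, as the rule requires, and the means were 24.9-fold and 33.3-fold higher. Crem, the cyclic AMP response element modulator, was at 2.85, 4.04 and 1.64 CPM in Undifferentiated, 5.98, 5.98 and 5.09 in Differentiated and 7.46, 6.47 and 6.74 in Lysfree. Pde4d, a cyclic AMP phosphodiesterase, was 1.91-fold higher in Differentiated and 2.65-fold higher in Lysfree, while Pde4a was 1.73-fold lower in Differentiated and 1.47-fold lower in Lysfree. Nr4a1, Pde3b and Pde4b were not chosen, and had folds of 1.72, 5.46 and 0.982 in Differentiated and 3.07, 2.63 and 2.64 in Lysfree. Of 23 measured genes of the signalling machinery, Crem, Prkar2a and Crtc2 were higher and Adcy7, Crtc1, Prkar1a and Adcy3 lower.

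Of 38 measured PPARG targets 1 was chosen (2.63%). It was Slc25a20, the mitochondrial carnitine carrier, at 22.6, 25.04 and 23.8 CPM in the controls, 37.6, 37.0 and 38.0 in Differentiated and 28.6, 26.1 and 26.4 in Lysfree, and it was not chosen with TMM, median-of-ratios or FPKM scaling. By edgeR 30 of the 38 were higher and 2 lower in Differentiated, and 3 higher and 8 lower in Lysfree. Fabp4, the fatty acid-binding protein of fat cells, was 53.2-fold higher in Differentiated and 1.14-fold lower in Lysfree, and Pparg itself 3.63-fold higher and 1.54-fold lower. Angptl4, another target, was higher in both media but to 4.36-fold in Differentiated and 2.28-fold in Lysfree. The share chosen as higher was near that of all measured genes for the glucocorticoid and cyclic AMP lists and under it for PPARG targets, and since hormones, serum and medium cannot be told apart the genes are named here by the rule.

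**Figure D2:**
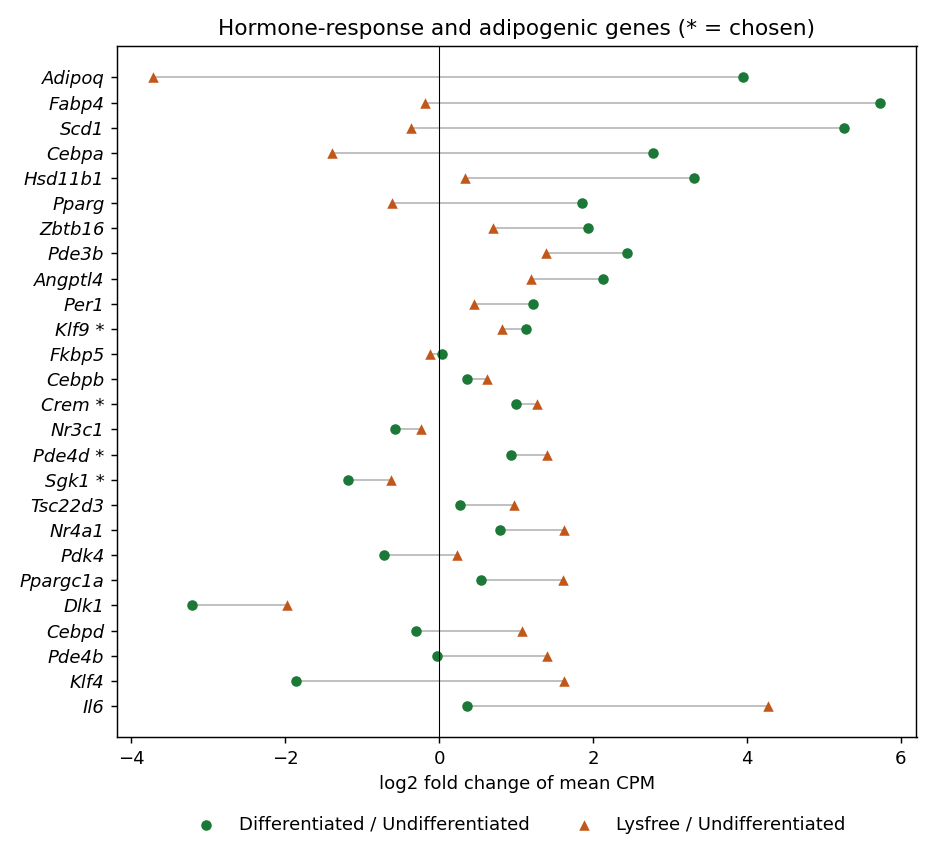
Log2 fold change of mean CPM over Undifferentiated in Differentiated (green circles) and Lysfree (orange triangles) for 26 glucocorticoid, cyclic AMP and adipogenic genes, ordered by the difference between the media. Of these, the 4 marked with a star (Klf9, Crem, Pde4d and Sgk1) were chosen; in the others the symbols lie further apart or the libraries overlap the controls.

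Stress-response, growth and signal-feedback genes were among the 12 largest increases. Hephl1, a copper-dependent ferroxidase, came first and was at 0.190, 0.0917 and 0.0630 CPM in Undifferentiated, 5.67, 4.42 and 6.71 in Differentiated and 6.74, 6.52 and 4.81 in Lysfree, which were 1 to 4 counts per control library and 85 to 116 per medium library. Myc, the transcription factor that drives ribosome and nucleotide synthesis (chr15:61985391-61990374), was at 31.9, 30.9 and 29.6 CPM in the controls, 164, 166 and 174 in Differentiated and 162, 182 and 189.6 in Lysfree. The 2 media overlapped, and Myc was 5.45-fold higher in Differentiated and 5.78-fold higher in Lysfree. Cth, which makes cysteine from cystathionine, was at 24.6, 25.9 and 24.7 CPM in Undifferentiated, 142, 137 and 152 in Differentiated and 145, 126 and 125 in Lysfree, and Dusp4, a phosphatase that switches off MAP kinases, at 7.503, 6.51 and 6.30 CPM in Undifferentiated, 78.6, 78.0 and 87.6 in Differentiated and 53.3, 61.6 and 61.4 in Lysfree. Ptgs2, the inducible cyclooxygenase, went from 4.70, 4.17 and 3.78 CPM to 24.4, 19.98 and 21.2 in Differentiated and 29.5, 22.5 and 24.3 in Lysfree. Raph1, which binds Ena/VASP proteins at the leading edge, and Lrp8, a reelin and lipoprotein receptor, were higher, Raph1 by 5.48-fold in Differentiated and 4.33-fold in Lysfree and Lrp8 by 9.39- and 7.27-fold. The remaining 5 of the 12 were Krt13, Sh2d6, Dennd2d, Gcnt2 and Atf3. Lrp8, Dennd2d and Gcnt2 overlap other annotated genes, and part of their counts may belong to these.

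**Figure D3:**
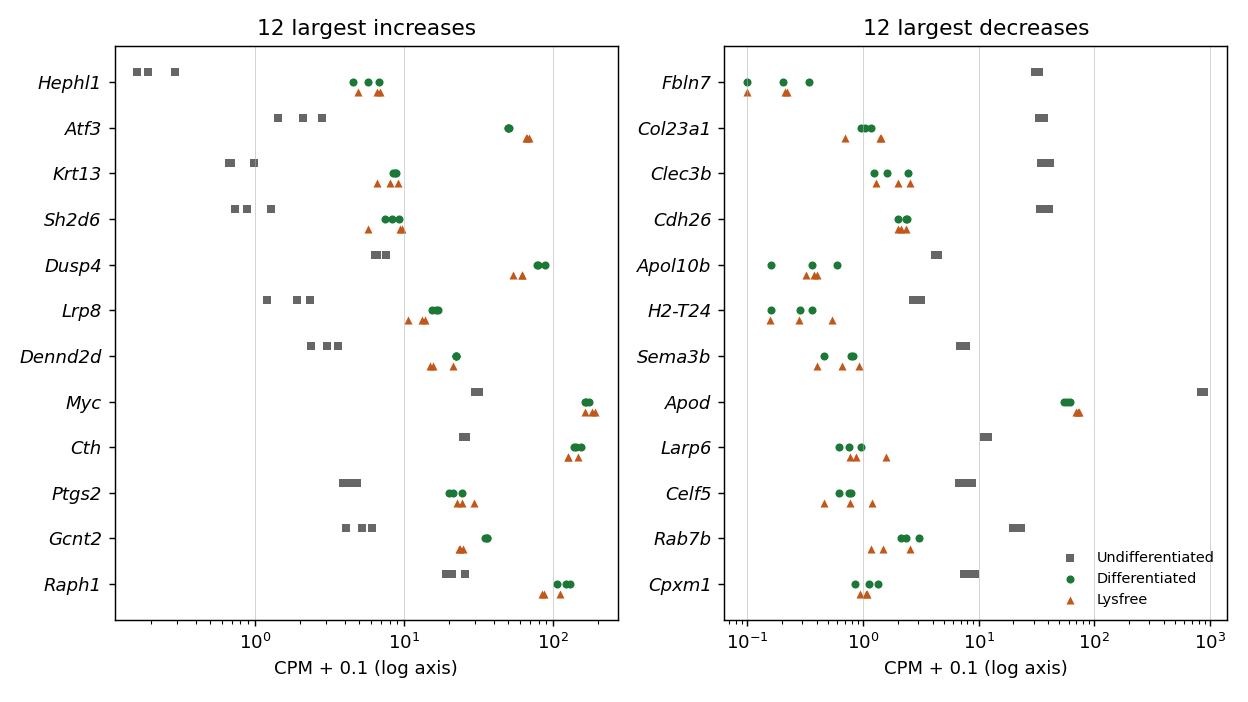
CPM plus 0.1 (log axis) in each of the 9 libraries for the 12 largest increases (left) and the 12 largest decreases (right) among the chosen genes, with grey squares for Undifferentiated, green circles for Differentiated and orange triangles for Lysfree. For each gene the 6 medium libraries lie on one side of the 3 controls, as the rule requires, and Fbln7 has libraries with 0 counts at the left edge.

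Read per length, the most abundant of the genes that were at least 2-fold higher included chaperones and factors of translation. They were Mif, a cytokine and tautomerase, Eif5a, a translation factor that carries hypusine, Hsp90aa1, Hspe1, the mitochondrial co-chaperonin, Chchd2, a mitochondrial intermembrane space protein, and Ybx3, an mRNA-binding protein, with means of 544, 368, 215, 213, 166 and 157 FPKM over the 9 libraries. Mif was at 185, 206 and 204 CPM in Undifferentiated, 555, 543 and 543 in Differentiated and 326, 558 and 571 in Lysfree, and Chchd2 at 201, 222 and 196 CPM in Undifferentiated, 509.9, 502 and 542 in Differentiated and 324, 464 and 451 in Lysfree. Lysfree 1 was the lowest medium library for both.

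Factors that build ribosomes gave the most higher genes of any of the 32 lists. Of 70 measured ribosome biogenesis factors, a list that also holds Myc, 43 were chosen as higher (61.4%, against 14.5% of all measured genes) and 1, Nsa2, as lower. The median log2 fold change of the 70 was 0.68 in Differentiated and 1.04 in Lysfree, beside -0.04 and 0.07 over all measured genes. By edgeR 21 were higher in Differentiated, and 35 higher and 1 lower in Lysfree, over Undifferentiated. Between the media 1 differed upwards and 1 downwards at the same threshold of at least 2-fold. Another 13 of the 70 stood apart from the controls with the media at least 1.5-fold apart, and were not chosen. Bysl, needed for the small subunit, was at 25.7, 24.99 and 26.4 CPM in Undifferentiated, 87.7, 84.0 and 87.7 in Differentiated and 74.3, 85.5 and 80.5 in Lysfree. Nop56, a core protein of box C/D snoRNPs, was at 126, 122 and 119 CPM in Undifferentiated, 296, 295 and 322 in Differentiated and 324, 331 and 332 in Lysfree, and Rrp9, which binds the U3 snoRNA, at 21.1, 23.7 and 25 CPM in Undifferentiated, 55.3, 57.8 and 64.6 in Differentiated and 49.7, 90.0 and 97.5 in Lysfree. Lysfree 1 was the lowest medium library for Bysl and Rrp9 and lay among the others for Nop56. Tbl3, of the small-subunit processome, and Nop2, a methyltransferase of 28S rRNA, were higher, Tbl3 by 2.73-fold in Differentiated and 2.46-fold in Lysfree and Nop2 by 2.86- and 2.44-fold. Also chosen were the RNA polymerase I genes Polr1a, Polr1b, Polr1c and Polr1e and its initiation factor Rrn3, the methyltransferase Fbl, and Dkc1 and Ncl. Across the 43 higher factors the median log2 ratio to the control mean was 0.80 to 0.83 in the Differentiated and 0.99 to 1.05 in the Lysfree libraries. With TMM, median-of-ratios or FPKM scaling 47 to 49 were chosen as higher.

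**Figure D4:**
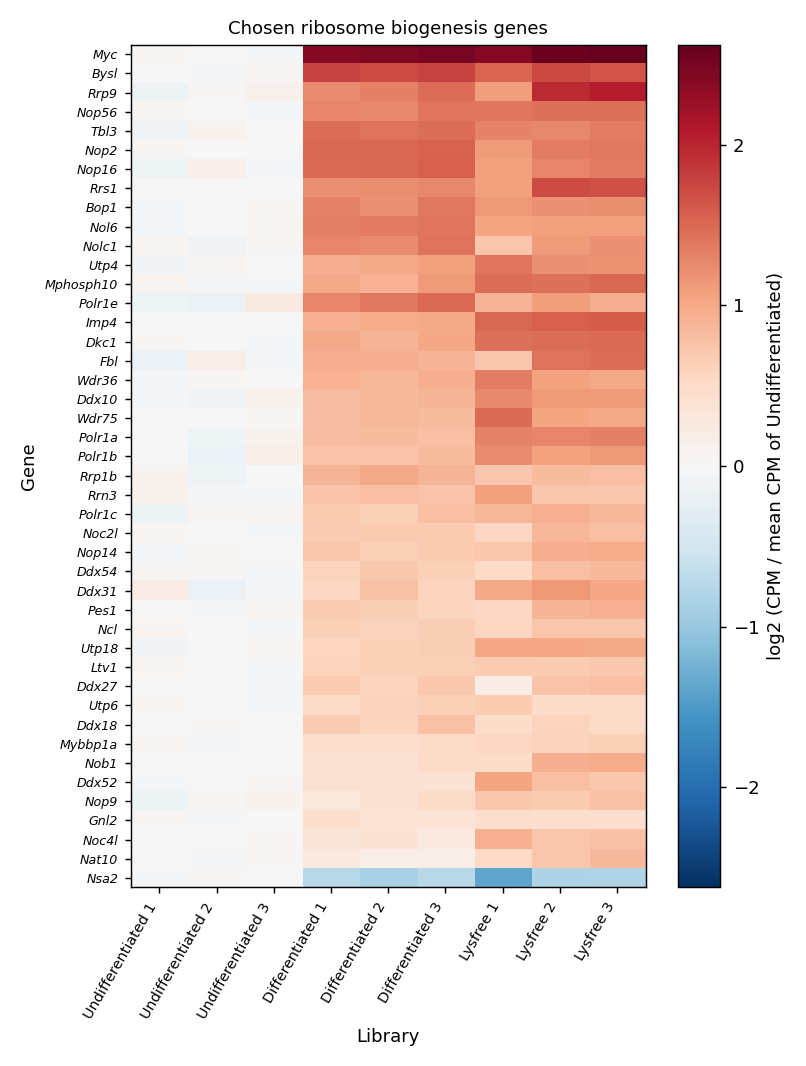
Log2 ratio of CPM to the mean CPM of the 3 Undifferentiated libraries (colour) for the 44 chosen ribosome biogenesis factors (rows) in the 9 libraries (columns). The 6 medium columns are red for 43 genes, led by Myc, and blue for Nsa2 in the bottom row, while the control columns are pale.

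MYC binds the E-box CACGTG, and 12 of the 58 ribosome biogenesis factors with a RefSeq promoter (20.7%, 95% Wilson interval 12.3% to 32.8%) had it within 250 bases before and 50 after the start, against 10.4% of 9101 promoters of measured genes. Among the chosen factors it lay upstream of the start in Nop2, Imp4, Rrn3 and Utp18, shown because they carry the motif in that list. The sequences are from RefSeq (GRCm38.p6), 5′ to 3′ along the gene, with the E-box in capitals.
Nop2, chr6:125131778-125131873, plus strand: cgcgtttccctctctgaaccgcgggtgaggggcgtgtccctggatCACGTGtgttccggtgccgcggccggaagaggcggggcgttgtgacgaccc
Imp4, chr1:34439663-34439758, plus strand: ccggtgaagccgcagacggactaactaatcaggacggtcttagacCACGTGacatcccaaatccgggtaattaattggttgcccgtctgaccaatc
Rrn3, chr16:13780606-13780698, plus strand: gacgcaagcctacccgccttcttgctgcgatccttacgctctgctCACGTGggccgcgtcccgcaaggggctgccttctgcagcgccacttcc
Utp18, chr11:93885767-93885831, minus strand: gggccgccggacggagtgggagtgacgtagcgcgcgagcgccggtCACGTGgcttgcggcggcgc
The motif ended 55, 116, 43 and 15 bases before the annotated start in these 4, whose means were 2.86-, 1.96-, 1.70- and 1.53-fold those of Undifferentiated in Differentiated and 2.44-, 2.93-, 1.79- and 2.01-fold in Lysfree. A match is a description of the letters and not evidence of binding.

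Enzymes of nucleotide synthesis were chosen in part. Of 35 measured, 13 were chosen as higher (37.1%, beside 14.5% of all measured genes) and none as lower, and 10 others stood apart from the controls with the media at least 1.5-fold apart. The median log2 fold change was 0.79 in Differentiated and 0.83 in Lysfree. By edgeR 12 were higher and 1 lower in Differentiated, and 11 and 1 in Lysfree, and 3 were higher and 8 lower in Lysfree than in Differentiated. Hprt, the purine salvage enzyme, was at 46.6, 48.9 and 48.7 CPM in Undifferentiated, 223, 221 and 225 in Differentiated and 186, 144 and 144 in Lysfree. Hprt was thus above the controls in every medium library, as the rule requires, and lower in Lysfree than in Differentiated. Ppat, Gart, Pfas and Adsl of the purine pathway were chosen with Gmps, which makes GMP, and so were Cad, Dhodh and Umps of the pyrimidine pathway. Ppat, the first committed enzyme of purine synthesis, was at 23.6, 24.3 and 20.4 CPM in Undifferentiated, 42.4, 40.9 and 47.9 in Differentiated and 64.6, 52.9 and 53.8 in Lysfree, and Umps, which completes UMP, at 39.2, 40.4 and 40.4 CPM in Undifferentiated, 75.3, 71.6 and 76.8 in Differentiated and 79.3, 79.5 and 83.5 in Lysfree. Dck and Tyms, which serve the supply of DNA precursors, were also higher. Slc19a1, the reduced folate carrier, which is not on the list and overlaps Col18a1, was 3.08-fold higher in Differentiated and 2.60-fold higher in Lysfree.

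Genes of DNA replication and the cell cycle were chosen in part. Of 42 replication genes 12 were higher (28.6%, beside 14.5% of all measured genes), among them Mcm3 and Mcm7 of the replicative helicase, Orc1 and Cdt1 of origin licensing, and Pcna. The median log2 fold change over the 42 was 0.59 in Differentiated and 0.21 in Lysfree. By edgeR 12 of the 42 were higher in Differentiated and 5 in Lysfree, over Undifferentiated. Between the media 2 were higher and 7 lower in Lysfree than in Differentiated. Mcm7 was at 67.3, 66.9 and 61.8 CPM in Undifferentiated, 111, 107 and 122 in Differentiated and 115, 110.2 and 116 in Lysfree, so that the media overlapped. Mitosis genes hardly entered the set: 3 of 36 (Anln, Ndc80 and Kif23) were chosen (8.33%, and 1 gene with FPKM). By edgeR 33 were higher in Differentiated, and 1 higher and 1 lower in Lysfree, over Undifferentiated. Of the 12708 measured genes 1824 were higher in Differentiated and 1056 in Lysfree. Regulators of cell cycle entry went both ways, with 7 of 31 higher (22.6%) and 4 lower (12.9%). Ccnd2, a D-type cyclin, and Cdk6, its partner, were higher, Ccnd2 by 2.03-fold in Differentiated and 1.76-fold in Lysfree and Cdk6 by 1.47- and 2.15-fold. The inhibitor Cdkn1b (p27) went from 174, 168 and 181 CPM to 81.6, 83.0 and 77.1 in Differentiated and 101, 96.8 and 100.3 in Lysfree, and Rbl2 (p130), a pocket protein of resting cells, from 29.8, 25.4 and 29.5 CPM in Undifferentiated to 14.0, 13.4 and 13.2 in Differentiated and 13.01, 14.2 and 12.4 in Lysfree. For both genes no medium library reached the controls, as the rule requires. Cdk4 was 1.62-fold lower in Differentiated and 1.63-fold lower in Lysfree.

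Several protein complexes were represented by many of their subunits. These families were picked after the chosen genes had been seen, and their counts carry no test. Over all measured genes 14.5% were higher and 11.6% lower. The 7 subunits counted for the cytosolic chaperonin CCT were higher, with Cct3 at 163, 169.9 and 154 CPM in Undifferentiated, 408, 392 and 419 in Differentiated and 415, 389 and 424 in Lysfree. Cct6a, a measured subunit that the count left out, was not chosen. Its log2 fold change was 1.03 in Differentiated and 1.96 in Lysfree. Of 38 subunits of the 26S proteasome 25 were higher (65.8%) and 2 lower (5.26%), and the lower ones were Psmc3 and the interferon-inducible Psmb10. Psmb3 and Psmd14, a subunit of the core particle and the deubiquitinase of the lid, were higher, Psmb3 by 2.22-fold in Differentiated and 2.45-fold in Lysfree and Psmd14 by 1.88- and 2.29-fold. Of the transport and transcription machinery, 11 of 19 nucleoporins (57.9%), 10 of 15 subunits of Integrator (66.7%), which processes small nuclear RNAs, and 11 of 20 cytosolic tRNA synthetases (55%) were higher and none was lower. The lysyl-tRNA synthetase gene Kars was at 119, 129 and 124 CPM in the controls, 201, 198 and 202 in Differentiated and 183, 216 and 225 in Lysfree. Among 52 genes counted as translation initiation factors 22 were higher (42.3%) and 7 lower (13.5%, near the 11.6% of all measured genes). The lower ones included Eif2ak2, Eif2ak3 and Eif2ak4, kinases of the initiation factor eIF2-alpha, while Eif2ak1, another such kinase, was higher. Mitochondrial ribosomal proteins gave 24 higher of 77 (31.2%, and 18 genes with FPKM). Their median log2 fold change was 0.84 in Differentiated and 0.30 in Lysfree. By edgeR 30 were higher in Differentiated, and 3 higher and 1 lower in Lysfree, over Undifferentiated. Between the media, 23 were lower in Lysfree than in Differentiated. Timm8a1, a small chaperone of mitochondrial import, was 4.43-fold higher in Differentiated and 3.52-fold higher in Lysfree. Of 13 HSP70 and HSP110 chaperones 5 were higher (38.5%), including Hspa5 of the endoplasmic reticulum at 1053, 1062 and 1032 CPM in Undifferentiated, 1972, 1939 and 1926 in Differentiated and 1915, 1807 and 1739 in Lysfree.

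Proteins of the cytosolic ribosome itself were chosen mainly as lower. Of 80 measured 28 were lower (35%, beside 11.6% of all measured genes) and 2 higher, none of them by 2-fold in both media, and without Undifferentiated 2 or Lysfree 1 the higher ones numbered 5 or 4. Rps20 was at 765, 984 and 834 CPM in Undifferentiated, 452, 432 and 474 in Differentiated and 354, 503 and 503 in Lysfree. Ribosomal protein genes have many processed pseudogenes that share their reads, so single values are uncertain. By TMM, median of ratios or FPKM 23 or 24 were lower.

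Transcription factors of the adipocyte lineage were chosen in both directions. Of 37 measured, Klf5, Klf6, Klf7, Klf9 and Runx1 were higher and Twist1, Ebf1, Ebf3, Runx2, Zfp423 and Stat5b lower. These shares, 13.5% higher and 16.2% lower, lay near the 14.5% and 11.6% of all measured genes. Klf5, an activator of early adipogenesis, was at 2.94, 2.61 and 4.16 CPM in the controls, 11.8, 11.4 and 12.7 in Differentiated and 11.5, 10.9 and 9.56 in Lysfree. Twist1, a mesenchymal factor, went from 182, 198.56 and 188 CPM in Undifferentiated to 60.6, 59.2 and 63.1 in Differentiated and 61.4, 81.7 and 82.6 in Lysfree, and Runx2, the factor of bone cells, from 46.6, 39.8 and 48.2 CPM in Undifferentiated to 14.4, 14.3 and 14.2 in Differentiated and 20.8, 21.6 and 17.9 in Lysfree. Cebpb and Cebpd, the early C/EBP factors, were not chosen. Lysfree 1 held Cebpb at 144 CPM, under the controls, while the other Lysfree libraries stood at 359 and 382, and Cebpd was below the controls in Differentiated and above them in Lysfree. Of 19 clock genes 5 were higher (26.3%) and none lower. Ciart, a repressor of CLOCK and BMAL1, was at 2.66, 2.48 and 3.09 CPM in Undifferentiated, 16.8, 16.3 and 16.5 in Differentiated and 7.70, 13.3 and 12.1 in Lysfree. The repressors Nfil3 and Bhlhe40 were higher, Nfil3 by 2.94-fold in Differentiated and 4.01-fold in Lysfree and Bhlhe40 by 2.63- and 2.34-fold, with Clock and Cry1 at smaller folds.

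Secreted and matrix genes led the decreases. Fbln7, a fibulin that binds cells (chr2:128862981-128897034), was at 31.0, 33.2 and 31.9 CPM in Undifferentiated, 0, 0.104 and 0.240 in Differentiated and 0.119, 0 and 0.111 in Lysfree, which were 507 to 723 counts per control library, 0 to 4 per Differentiated and 0 to 2 per Lysfree library. Col23a1, a transmembrane collagen, was at 36.6, 33.1 and 33.2 CPM in Undifferentiated, 0.873, 0.936 and 1.08 in Differentiated and 0.597, 1.29 and 1.33 in Lysfree, Clec3b (tetranectin) at 41.0, 40.6 and 34.5 CPM in Undifferentiated, 2.37, 1.51 and 1.14 in Differentiated and 1.19, 1.91 and 2.43 in Lysfree, and Apod, a lipocalin, at 897, 839 and 874 CPM in Undifferentiated, 58.2, 54.4 and 61.1 in Differentiated and 74.0, 69.6 and 72.3 in Lysfree. Every medium library was below every control for all 4, as the rule requires. Cdh26, a cadherin, and Cpxm1, a secreted carboxypeptidase-like protein, were lower, Cdh26 by 17.1-fold in Differentiated and 17.8-fold in Lysfree and Cpxm1 by 8.24- and 8.90-fold. Larp6, which binds collagen mRNAs, and Rab7b, a small GTPase of endosomes, were lower, Larp6 by 16.9-fold in Differentiated and 11.8-fold in Lysfree and Rab7b by 9.16- and 13.5-fold. Apol10b, H2-T24, Sema3b and Celf5 made up the rest of the 12.

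Among the most abundant genes that were at least 2-fold lower in both media were main products of fibroblasts. Col1a1, the alpha-1 chain of type I collagen, had the highest mean, 858 FPKM over the 9 libraries, and was at 13128, 11657 and 12688 CPM in Undifferentiated, 2280.4, 2357 and 2249.8 in Differentiated and 2029, 2397 and 2429.7 in Lysfree. Postn (periostin) was at 4721, 4574 and 4699 CPM in Undifferentiated, 782, 848 and 847 in Differentiated and 689, 533 and 548 in Lysfree, and Sparc (osteonectin) at 3754, 4119 and 3954 CPM in Undifferentiated, 1199, 1162 and 1226 in Differentiated and 1732, 1754 and 1726 in Lysfree. Cst3 (cystatin C) and the cross-linking oxidase Loxl1 were lower, Cst3 by 5.64-fold in Differentiated and 4.91-fold in Lysfree and Loxl1 by 2.96- and 2.15-fold. Col1a2, which pairs with Col1a1, was lower in both media and yet outside the rule, at 6.71-fold lower in Differentiated and 3.09-fold lower in Lysfree.

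Matrix lists held more lower than higher genes, with many members outside the 1.5-fold limit. Of 23 collagen chains 5 were lower (Col23a1, Col1a1, Col16a1, Col5a1 and Col18a1, 21.7%). Of 20 collagen-processing genes 6 were lower (30%) and 3 higher (15%), and of 27 metalloproteinases and inhibitors 6 were lower (22.2%) and 1, Mmp19, higher. Over all measured genes 11.6% were lower and 14.5% higher. By edgeR 13 collagen chains were lower in each medium, where 11.4% of all tested genes were lower in Differentiated and 8.76% in Lysfree. Among the 12708 measured genes, the closer background, 2101 were lower in Differentiated and 1541 in Lysfree. Bmp1, which cleaves procollagen, was at 508, 504 and 501 CPM in the controls, 147, 138 and 151 in Differentiated and 149, 177 and 187 in Lysfree, and P3h3, a prolyl hydroxylase, was 3.26-fold lower in Differentiated and 3.58-fold lower in Lysfree. P4ha2, another prolyl hydroxylase, and Pcolce2, an enhancer of procollagen cleavage, were higher, P4ha2 by 2.15-fold in Differentiated and 1.97-fold in Lysfree and Pcolce2 by 4.01- and 5.06-fold. Mmp23 and Adamts10 were lower, Mmp23 by 9.43-fold in Differentiated and 7.53-fold in Lysfree and Adamts10 by 3.49- and 3.80-fold.

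Ligands and receptors of the cell surface were chosen as lower at shares of 4.76% to 22.7% per list, beside 11.6% of all measured genes. Cxcl12, the chemokine ligand of CXCR4, was at 2392, 2453 and 2434 CPM in Undifferentiated, 317, 322 and 324 in Differentiated and 312, 351 and 348 in Lysfree, and was the only chemokine chosen as lower, while Cxcl1 and Ptgs2 of the same list of 21 were higher. Of 38 growth factors and receptor tyrosine kinases 6 were lower (15.8%) and none higher, and by edgeR 4 were higher and 20 lower in Differentiated and 5 higher and 7 lower in Lysfree. Egfr, the EGF receptor, was at 95.8, 94.3 and 100.1 CPM in Undifferentiated, 30.2, 29.9 and 28.9 in Differentiated and 36.3, 31.0 and 33.9 in Lysfree, and Angpt1, a ligand of TEK, was 2.95-fold lower in Differentiated and 2.14-fold lower in Lysfree with Lysfree 1 the highest medium library. Of 38 semaphorins, plexins, ephrins and netrins 6 were lower, Sema3b, Ephb2, Efna1, Ntn1, Sema4c and Efnb1 (15.8%), and none higher. Ntn1 (netrin 1) was at 155, 152 and 155 CPM in Undifferentiated, 63.8, 66.9 and 64.3 in Differentiated and 39.99, 46.6 and 50.3 in Lysfree. Of 22 Wnt pathway genes 5 were lower, the ligands Wnt4 and Wnt6, the receptor Fzd8 and the coreceptors Lrp5 and Lrp6, and none was higher. Wnt6 was at 4.56, 3.76 and 4.85 CPM in Undifferentiated, 1.12, 0.936 and 0.719 in Differentiated and 0.895, 0.675 and 0.719 in Lysfree. Of 39 TGF-beta and BMP genes 4 were lower and 4 higher, with the receptor Tgfbr1 1.58-fold higher in Differentiated and 1.42-fold higher in Lysfree and the receptor Tgfbr2 1.82-fold lower in Differentiated and 1.92-fold lower in Lysfree.

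Of 44 measured interferon-stimulated genes 11 were chosen, all as lower (25%, beside 11.6% of all measured genes), and the median log2 fold change of the list was -1.07 in Differentiated and -1.90 in Lysfree. By edgeR 23 were lower in Differentiated and 33 in Lysfree, and none was higher in either. The summed macrophage markers were also lower in both media, and their part in this was not tested. Stat2 and Irf9, of the complex that drives these genes, were both chosen, with Stat2 at 231, 263 and 237 CPM in Undifferentiated, 82.0, 77.5 and 92.5 in Differentiated and 76.9, 69.6 and 72.1 in Lysfree. Ifi44 went from 129, 169 and 134 CPM in Undifferentiated to 45.1, 46.6 and 56.0 in Differentiated and 54.7, 34.7 and 31.6 in Lysfree, and Irgm1, an interferon-inducible GTPase, from 75.4, 100.3 and 83.8 CPM in Undifferentiated to 21.0, 19.6 and 26.7 in Differentiated and 34.3, 33.2 and 33.3 in Lysfree. Undifferentiated 2 was the highest library for all 3. Tap1 and Tap2, which carry peptides for class I antigens, were also lower. Parp9, Parp10 and Parp12, which are interferon-inducible too, were among 5 of 12 PARP genes that were lower, and Parp2 was higher.

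Lysosomal and zinc finger genes were lower at shares near the 11.6% of all measured genes. Of 45 lysosomal genes 6 were lower (13.3%) and none higher, with Arsb (arylsulfatase B) at 55.7, 55.8 and 54.1 CPM in Undifferentiated, 18.9, 19.7 and 19.6 in Differentiated and 17.97, 26.4 and 24.9 in Lysfree. By edgeR 30 of the list were lower in Differentiated and 7 in Lysfree, and the part of the lower macrophage markers was not tested. Of 14 intraflagellar transport genes 6 were lower (42.9%) and none higher, among them Ift122 at 63.4, 60.4 and 56.4 CPM in the controls, 28.5, 33.2 and 31.3 in Differentiated and 31.6, 32.6 and 30.5 in Lysfree. The median log2 fold change of the 14 was -0.81 in Differentiated and -0.34 in Lysfree. By edgeR 5 were lower in Differentiated and 0 in Lysfree, and 2 were higher in Lysfree than in Differentiated. Of 418 genes of the C2H2 zinc finger class, as the file assigns it, 60 were lower (14.4%) and 21 higher (5.02%). Zfp354c and Zfp41 were lower, Zfp354c by 6.48-fold in Differentiated and 7.69-fold in Lysfree and Zfp41 by 5.25- and 6.80-fold. Of 13 FK506-binding proteins 6 were lower, among them Fkbp7, Fkbp9, Fkbp10 and Fkbp11 of the endoplasmic reticulum, and 2 higher (1 with the other scalings). Chosen antisense genes were 4 higher and 19 lower of 174 measured, and chosen lincRNA genes 7 and 17 of 190, whereas of 11424 protein-coding genes 1759 were higher (15.4%) and 1362 lower (11.9%).

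Promoters gave a measure that the rule had not used. RefSeq promoters were matched for 1428 of 1759 protein-coding genes chosen as higher (81.2%), 1094 of 1362 chosen as lower (80.3%) and 9101 of 11424 measured (79.7%), with a median GC content of 62.0%, 60.7% and 61.3%. Motifs were searched on both strands. The full cyclic AMP response element TGACGTCA was in 4.27% of the promoters of higher genes (95% Wilson interval 3.34% to 5.45%), 3.11% of lower (2.23% to 4.31%) and 3.37% of all measured genes. Its core TGACG, which the full element contains, was in 40.5% of higher (38.0% to 43.1%), 28.2% of lower (25.6% to 30.9%) and 33.1% of all. The core of the glucocorticoid response element, ACANNNTGT, was in 2.59%, 3.75% and 3.55%, and that of the PPAR element, GGTCANAGG, in 1.33%, 1.28% and 1.40%. The E-box CACGTG was in 11.2% of higher, 8.14% of lower and 10.4% of all promoters, and the E2F site TTTCCCGC in 2.66%, 1.65% and 2.27%. The CHR element TTTGAA was in 12.3%, 9.51% and 11.6%, and the CCAAT box in 39.4%, 38.0% and 39.8%. The C/EBP site TTGCGCAA was in 0.56% of higher and 0.297% of all promoters, and in 0 of 1094 of lower genes. The intervals cover counting error only, and genes that share a promoter region are not independent.

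Of the genes that were at least 2-fold higher in both media and held the full cyclic AMP response element upstream of their start, 5 are shown, with the element in capitals, from RefSeq (GRCm38.p6) along the gene.
Nkrf, chrX:36903503-36903600, minus strand: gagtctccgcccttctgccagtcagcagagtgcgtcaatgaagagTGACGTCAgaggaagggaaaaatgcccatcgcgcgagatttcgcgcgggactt
Suv39h2, chr2:3475019-3475116, minus strand: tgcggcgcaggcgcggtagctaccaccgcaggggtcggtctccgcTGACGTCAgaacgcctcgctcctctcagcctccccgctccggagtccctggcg
Mif, chr10:75860278-75860346, minus strand: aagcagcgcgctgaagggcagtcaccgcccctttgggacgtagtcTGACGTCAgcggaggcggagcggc
Gemin6, chr17:80224388-80224450, plus strand: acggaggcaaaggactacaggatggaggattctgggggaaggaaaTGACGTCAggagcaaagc
Mrm3, chr11:76243671-76243735, plus strand: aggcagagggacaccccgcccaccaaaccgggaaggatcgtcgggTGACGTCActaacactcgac
Nkrf, a repressor of NF-kappa-B, was 2.93-fold higher in Differentiated and 3.04-fold higher in Lysfree, Suv39h2, a histone H3K9 methyltransferase, 2.71- and 2.59-fold, Gemin6, of the SMN complex, 2.23- and 2.66-fold, and Mrm3, a methyltransferase of mitochondrial rRNA, 2.80- and 2.19-fold. Mif, described above, was among the most abundant of the higher genes. Their elements ended 83, 78, 17, 11 and 13 bases before the start in the order shown.

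**Figure D5:**
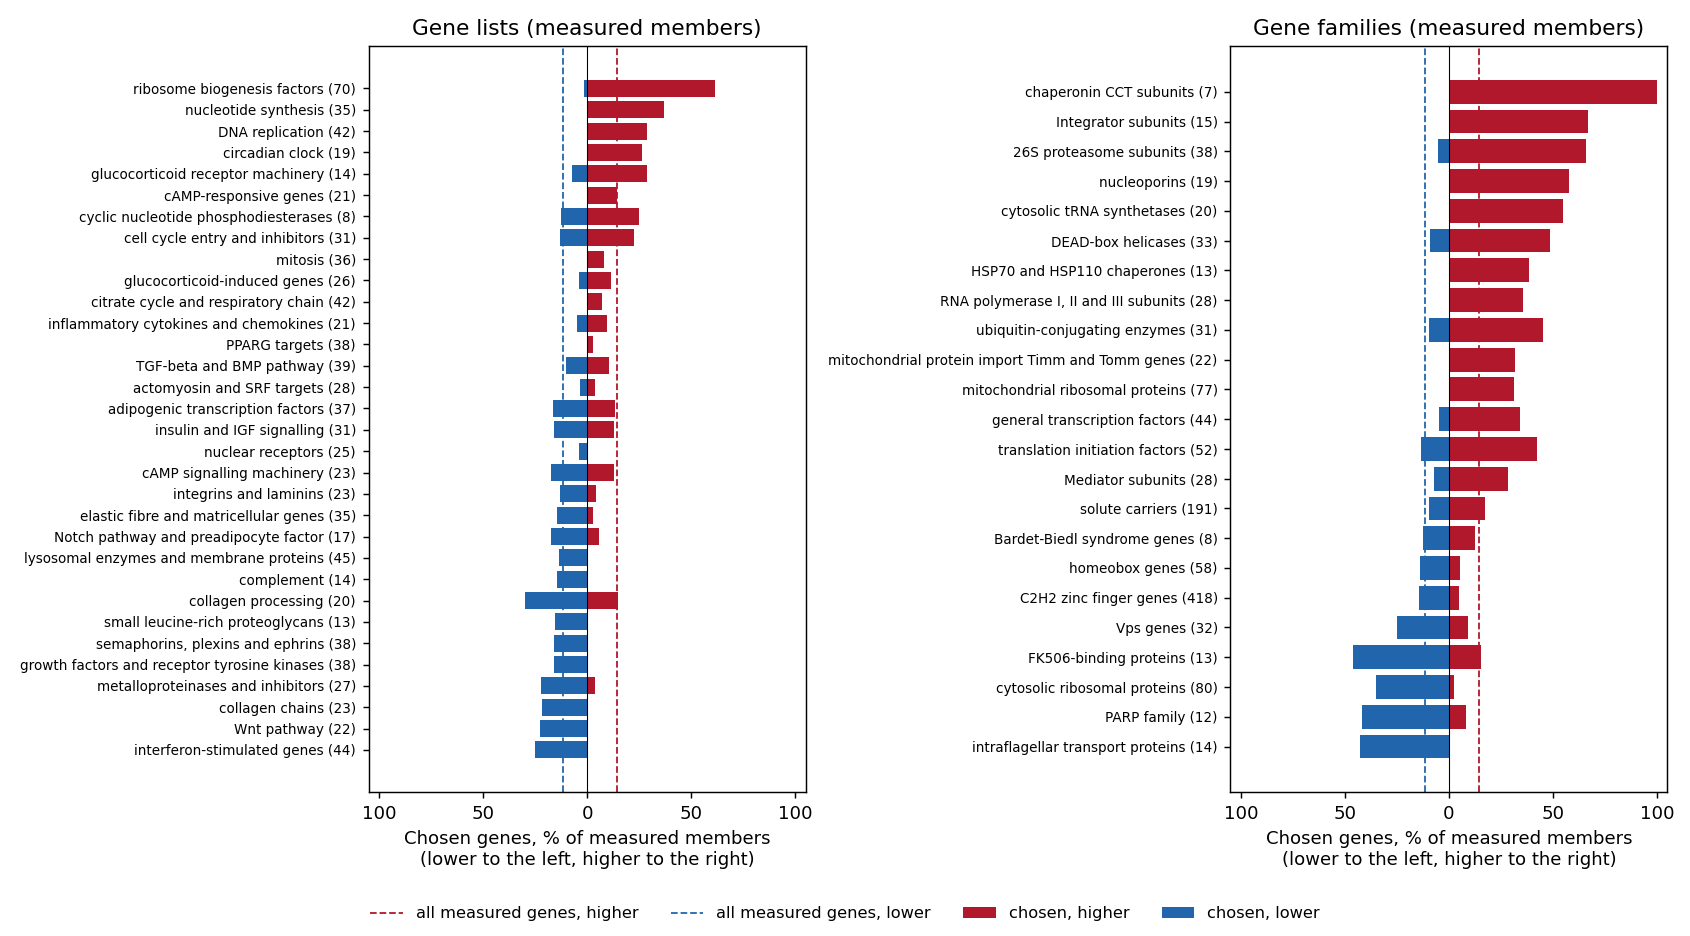
Share of measured members chosen as higher (red, to the right) or lower (blue, to the left) in percent, for the 32 gene lists (left) and 23 gene families (right), with the number measured in parentheses and dashed lines at the share over all measured genes (14.5% higher, 11.6% lower). Among the lists, ribosome biogenesis and nucleotide synthesis extend furthest to the right, and collagen processing and interferon-stimulated genes furthest to the left. Among the families, chaperonin (counted without Cct6a, which was not chosen), Integrator and proteasome extend furthest to the right. Intraflagellar transport, PARP and FK506-binding protein genes extend furthest to the left.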

How the data were processed

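The authors mapped paired-end reads to mm10 with HISAT2 2.0.5 and deposited the raw counts per gene that featureCounts 1.5.0-p3 gave, for 9 libraries in 3 groups of 3. The deposited FPKM values are these counts scaled by the authors to gene length and library total. The annotation release and the strand setting were not given in the sources used here.

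CPM was computed from the deposited counts and library totals (15880144 to 21806693) with pandas 2.3.3 in Python 3.11.15. Members, gene lists and gene families were chosen with earlier results of these data known. Named genes were the 12 largest increases and decreases by the smaller fold change, the 6 of highest FPKM in each direction, up to 6 per list, the genes beside the 1.5-fold limit, 26 fixed genes and the markers. Other chosen genes are named where a list or family count is given, and were picked after their values were seen. Pairwise comparisons used edgeR 4.0.16 in R 4.3.3 (TMM, quasi-likelihood test, Benjamini-Hochberg adjusted p under 0.05 and at least 2-fold), tested on simulated data; DESeq2 1.42.0 was an alternative. No library repeated another, as the chi-square per degree of freedom between replicates was 2.76 to 44.4. Promoters of 250 bases before to 50 after the start were from RefSeq (GRCm38.p6), searched on both strands, with Wilson intervals from scipy 1.17.1. Alternatives changed the scaling, limits, filters and libraries, and those for lists and families were added after the data were seen. Results for some genes are not reported here.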

Additional observations from a re-analysis of the deposited data

How the results depend on the processing

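With the ratio between the media held under 5 to 4, 1205 genes were chosen as higher and 946 as lower, and a change of at least 2-fold in both media left 246 and 374. The 2-fold genes numbered 150 and 241 under that ratio, and the lower ones numbered 246 with a mean of at least 5 CPM. Scaling by TMM, median of ratios or FPKM chose 1816 to 1828 genes as higher and 1547 to 1598 as lower. Without 1 library in turn the rule chose 1852 to 2151 and 1487 to 1657, and the edgeR comparisons called 5037 to 5161 genes in Differentiated against Undifferentiated, 3093 to 3448 in Lysfree against Undifferentiated and 4120 to 4485 in Lysfree against Differentiated. Without a fold threshold they called 11260, 8428 and 9280. Among promoters of the 2-fold higher genes the CHR element was in 7.39%. The motif shares of the 2-fold lower genes are not given, since promoters were matched for 76.7% of them.

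Deviations of same-numbered libraries correlated at -0.19 to 0.21. With 3 libraries per group, and labels that do not say what the replicate numbers mean, this cannot show whether the libraries were paired. With the replicate number as a block (paired), edgeR called 4837, 3179 and 4173 genes, against 5329, 3426 and 4507 without it.

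The rule compares means and the order of 9 libraries, and 3 libraries per group of 1 cell line limit its precision. Genes with few counts, such as Hephl1, Crem and Wnt6, had wide counting error, and differences under 1.5-fold between the media were part of the rule. Hormones, serum, base medium and time in culture cannot be told apart.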
